A study of Sus scrofa with 22 samples.

Results

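The genes described here are the amino acid transporters of the pig embryo, taken as every gene named SLC1A, SLC3A, SLC6A, SLC7A, SLC36A, SLC38A or SLC43A and a number in the authors' deposited table of group means. They make up 54 of the 25749 genes of that table. By family, 7 belong to SLC1, 2 to SLC3, 17 to SLC6, 11 to SLC7, 4 to SLC36, 10 to SLC38 and 3 to SLC43. The rule uses only the names and no measured values, although it was set with earlier results of these data known. The rule also takes in relatives with other cargo, among them the serotonin carrier SLC6A4, the taurine carrier SLC6A6, the creatine carrier SLC6A8, the GABA and betaine carriers SLC6A11, SLC6A12 and SLC6A13, and the purine nucleobase carrier SLC43A3.

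Amino acids cross the plasma membrane only through carriers. Some carriers, such as SLC1A5, SLC38A2 and SLC7A3, are single proteins, whereas the light chains SLC7A5, SLC7A7, SLC7A8 and SLC7A11 need the heavy chain SLC3A2, and the cystine and basic amino acid carrier SLC7A9 needs the heavy chain SLC3A1. Before implantation the pig conceptus lives on uterine secretions, and leucine, arginine and glutamine from these are known to act on the kinase complex mTORC1 in trophectoderm, the outer layer that will form the placenta.

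The RNA of 1647 single cells from 22 libraries was read with barcoded Smart-seq2, in a modified form. Of these, 20 libraries (P1 to P20) hold 1458 cells of embryos from embryonic day (E) 0 to E14, and the other 2 hold cells of pgEpiSC lines, pluripotent stem cells derived from E10 epiblast before gastrulation, called pgEpiSC_low (93 cells) and pgEpiSC_high (96 cells). What low and high refer to, the breed, the genotype and any treatment of the embryos or lines were not given in the sources used here, nor was the number of embryos behind a library. The labels do not say whether the 2 pgEpiSC libraries hold different lines. The authors' tables place the cells in 39 groups: Oocyte, Zygote, 2C, 4C and 8C (cleavage stages named by cell number), Morula_E4, preICM_E5 and preTE_E5, ICM_E6 (inner cell mass), trophectoderm (TE) from TE_E6 to TE_E14, epiblast and hypoblast from E7 to E10, ectoderm and mesoderm from E11 to E14, Endoderm_E11 and Endoderm_E12, Defi_Endoderm_E13 and Defi_Endoderm_E14, and the 2 pgEpiSC groups. Epiblast gives rise to the embryo proper, and hypoblast lines the yolk sac.

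The libraries held between 7415760 and 39405309 counts, with a median of 274531 counts per cell. The same 96 cell barcodes recurred in several libraries, so the library and barcode together named a cell. Counts of the cells of 1 group or bin in 1 library were added, and these library sums were the replicates. Since the labels do not say which libraries came from separate embryos, a p-value here reflects only how the sums of different libraries scatter, which may be technical. All adjusted p-values come from the quasi-likelihood test of edgeR, adjusted over all genes by Benjamini and Hochberg's method, a gene was called at an adjusted p of at most 0.05, and a change is given on the log2 scale with an approximate standard error. Values in CPM, counts scaled to a library sum's own total of 1000000, are those of single library sums. A lower sum in CPM cannot tell fewer expressing cells from less RNA per cell.

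Of the 54 transporters, 43 reached a deposited mean of at least 1 in some group, on the authors' scale of log2(CPM/10 + 1). Of all genes of the table, 54.15% did so. The other 11 stayed below it everywhere, among them SLC6A2, SLC6A3, SLC6A7, SLC6A13, SLC6A14, SLC6A17, SLC7A10, SLC7A14, SLC38A4 and SLC38A11. Of these, SLC6A14, a broad importer of neutral and basic amino acids, had its highest deposited mean, 0.13, in Defi_Endoderm_E13. By family, all 7 SLC1, both SLC3, 10 of 17 SLC6, 9 of 11 SLC7, all 4 SLC36, 8 of 10 SLC38 and all 3 SLC43 genes were detected in this sense. Only SLC7A7 and SLC7A8, light chains for basic and for neutral amino acids, reached 1 in all 39 groups. These 2 genes are neighbours, at chr7:76195774-76235406 and chr7:75854700-75921931 of Sscrofa11.1, with 273842 bases between them. The number of transporters at or above 1 was 26 in Oocyte and 24 in 2C, 15 in 8C and 13 in Morula_E4, and was lowest in ICM_E6, at 12. The share of all genes at this level was likewise highest in Oocyte (36.44%), with 34.22% in 2C, 28.09% in 8C and 30.43% in Morula_E4, and lowest in ICM_E6 (23.6%). The number of transporters stood at 20 in TE_E12, Hypoblast_E9 and Defi_Endoderm_E14. These are counts per group without a test.

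**Figure D1:**
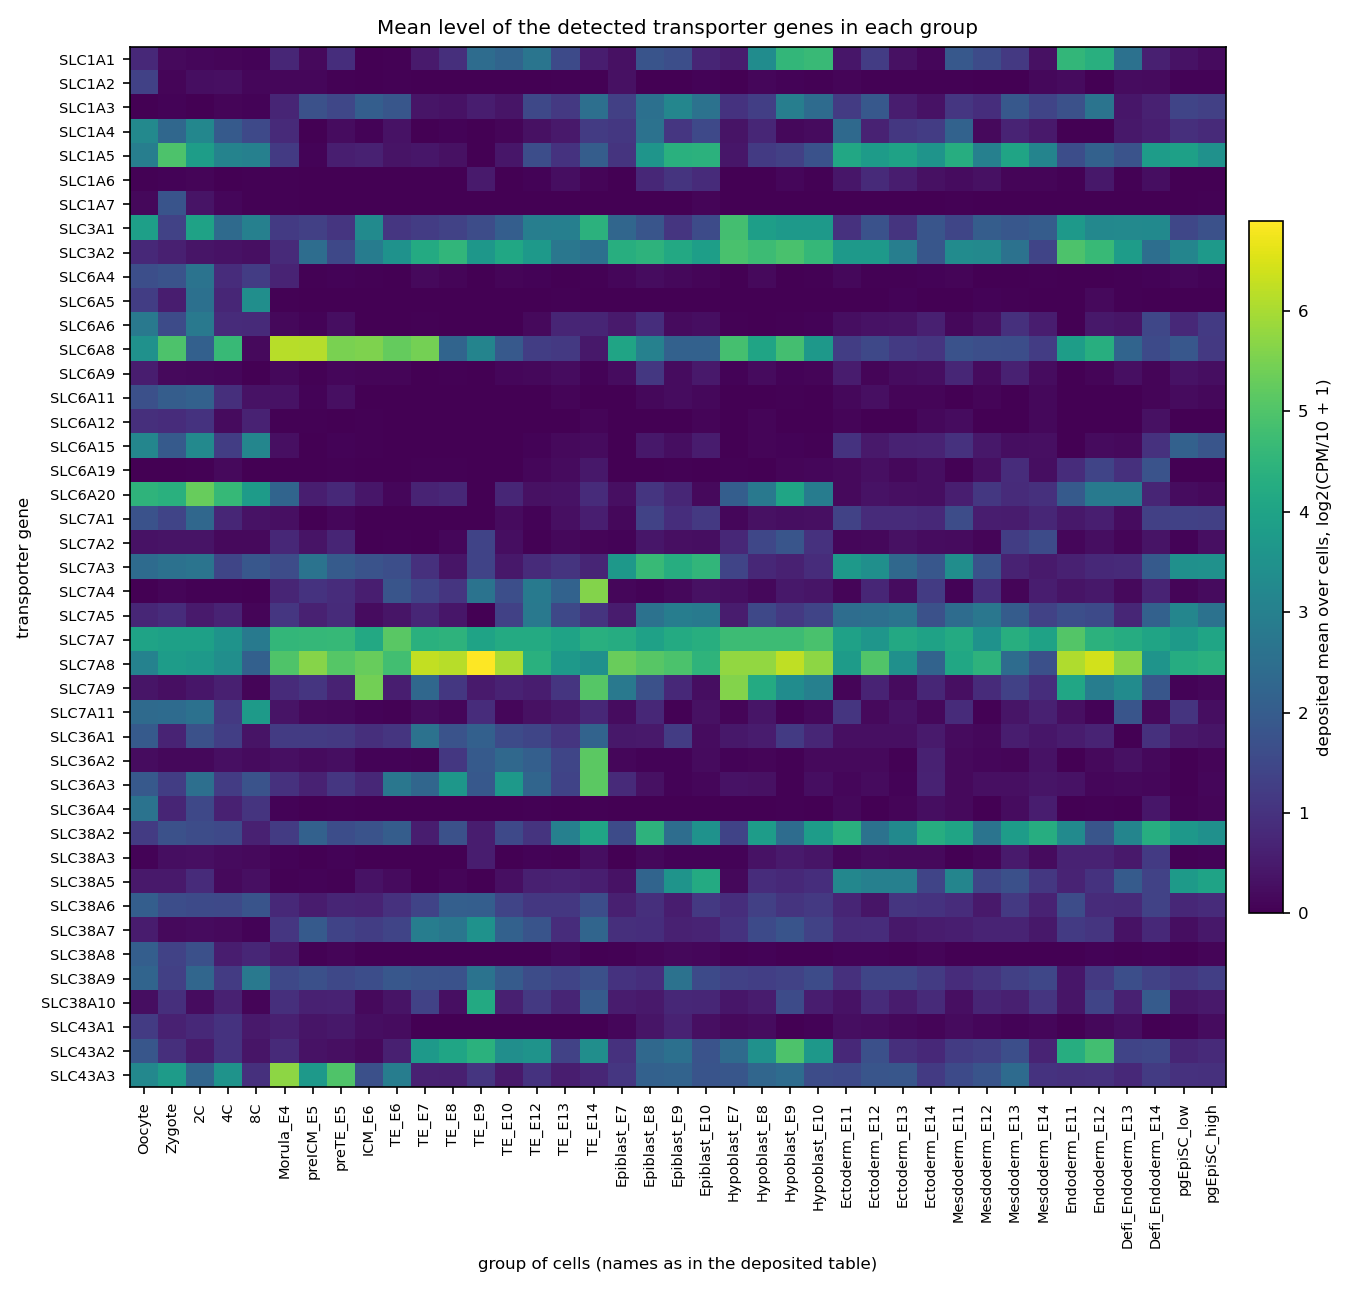
Deposited mean of log2(CPM/10 + 1) for the 43 detected transporters (rows) in the 39 groups (columns, by stage and lineage), as colour. Separate blocks of high values are seen in the cleavage stages (SLC6A20, 5.29 in 2C), hypoblast (SLC7A9, 5.62 in Hypoblast_E7), epiblast (SLC7A3, 4.65 in Epiblast_E8) and late trophectoderm (SLC7A4, 5.61 in TE_E14).

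Each transporter was set against its own levels only, since levels of different genes are not comparable here. Egg and cleavage stages held the highest deposited mean of the glutamine and alanine exchanger SLC1A5 (4.96 in Zygote), the proline carrier SLC6A20 (5.29 in 2C), the branched-chain and proline carrier SLC6A15 (3.24 in 2C), the arginine carrier SLC7A1 (2.31 in 2C), the glycine carrier SLC6A5 (3.41 in 8C) and the cystine and glutamate exchanger SLC7A11 (3.76 in 8C). The creatine carrier SLC6A8 (6.15) and the purine carrier SLC43A3 (5.73) were highest in Morula_E4. Epiblast held the highest mean of SLC7A3 (4.65 in Epiblast_E8), which imports arginine and lysine, of the glutamine carriers SLC38A2 (4.46 in Epiblast_E8) and SLC38A5 (4.23 in Epiblast_E10), and of the glutamate carrier SLC1A3 (3.17 in Epiblast_E9).

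Hypoblast held the highest mean of the glutamate carrier SLC1A1 (4.67 in Hypoblast_E10), the heavy chain SLC3A1 (4.84 in Hypoblast_E7), its partner SLC7A9 (5.62 in Hypoblast_E7), the basic amino acid carrier SLC7A2 (1.81 in Hypoblast_E9) and the leucine-type carrier SLC43A2 (4.96 in Hypoblast_E9). In trophectoderm the highest means were those of SLC7A4 (5.61), the proton-coupled carrier SLC36A2 (5.16) and its relative SLC36A3 (5.15), all in TE_E14. The means of SLC7A7 (5.14 in TE_E6) and SLC7A8 (6.89 in TE_E9) were highest in trophectoderm too. The group TE_E9 holds only 2 cells of library P17. The heavy chain SLC3A2 was highest in Endoderm_E11 (4.96), the intestinal neutral amino acid carrier SLC6A19 in Defi_Endoderm_E14 (1.76), and the leucine carrier SLC7A5 in pgEpiSC_low (3.16). When cells were pooled and scaled to CPM in place of averaging logs, the highest group was the same for 31 of the 43.

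Heavy and light chains were followed across the 39 group means as a description, with no test, because groups share libraries. SLC3A1 and SLC7A9 ran together (Pearson 0.69, Spearman 0.54). For SLC3A2 the Pearson value was 0.70 with SLC7A8, 0.52 with SLC7A7, 0.27 with SLC7A5 and -0.62 with SLC7A11. Thus SLC3A2 was high where SLC7A8 was high, and low in the early stages where SLC7A11 was high. SLC1A5 ran with SLC38A5 (Pearson 0.72) and with SLC7A5 (Pearson 0.63).

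The comparison of Morula_E4 (30 cells, P1 and P2) with 8C (80 cells, P19 and P20) asks which transporter messages differed between these stages. Of 49 transporters tested, 10 were higher in Morula_E4, against 16.3% of 23182 genes, and 8 were lower, against 13.5% of genes. Their median log2 change was -0.40, and that of all genes 0.00. With DESeq2's size factors, which moved the median of all genes to -0.47, 10 were higher, against 13.1% of genes, and 12 lower, against 18.4%. The stages came from different libraries, so stage and library cannot be told apart.

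The rise of the creatine carrier SLC6A8 led the list. It stood at 651 and 704 CPM in the Morula_E4 sums and at 1.20 and 1.12 CPM in 8C, a log2 change of 8.85 ± 1.14 (edgeR adjusted p = 3.66e-08). In P1 itself, SLC6A8 had 64.9 CPM in Oocyte, 295 in Zygote, 45.1 in 2C and 477 in 4C, while P13 had 14.6 in 2C and 18.3 in 4C. The 8C level was thus below each of these, and the 4C sums of P1 and P13 were far apart. The 4C sums also differed for SLC7A1 (2.66 CPM in P1 and 62.2 in P13), SLC6A11 (4.28 and 56.0) and SLC6A6 (3.25 and 49.9).

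SLC7A4, a relative of the cationic carriers, had 11 and 9.16 CPM in Morula_E4 against 0.0856 and 0 in 8C (log2 change 7.51 ± 1.45, adjusted p = 6.36e-05). The purine carrier SLC43A3 had 496 and 560 CPM against 14.6 and 11.7 (5.04 ± 0.75, adjusted p = 6.76e-07). SLC38A7, a glutamine and asparagine carrier of the lysosome, had 17.9 and 18.3 CPM against 0.514 and 0.819 (4.33 ± 0.93, adjusted p = 0.000313). In all of these the groups lay far apart relative to the spread between sums. SLC1A1 rose from 1.54 and 0.298 CPM to 7.43 and 25.2 (3.97 ± 1.23, adjusted p = 0.0116), a call lost without P2 (adjusted p = 0.126) or P20 (0.137). Also higher were SLC7A9 (log2 change 3.56), SLC1A3 (3.46), SLC7A5 (3.26), SLC7A8 (2.51) and SLC7A7 (1.34).

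The 8 genes that fell include carriers that were high from the egg on. The glycine carrier SLC6A5 had 0.338 and 0.763 CPM in Morula_E4 against 129 and 96.9 in 8C (log2 change -8.14 ± 2.24, adjusted p = 0.00555). SLC6A15 had 2.19 and 1.53 CPM against 101 and 95.6 (-5.98 ± 1.62, adjusted p = 0.00416), and SLC7A11 had 7.09 and 2.29 against 172 and 140 (-5.27 ± 1.46, adjusted p = 0.00472). Their Oocyte sums in P1 were already high for SLC6A15 (88.7 CPM) and SLC7A11 (83.7 CPM). SLC36A4, a proline and tryptophan carrier, fell from 22.2 and 14.2 CPM to 0.675 and 0 (-5.56 ± 2.01, adjusted p = 0.033). SLC1A5 had 27.2 and 1.53 CPM against 128 and 76.5 (-2.98 ± 1.03, adjusted p = 0.0235), with its 2 Morula_E4 sums wide apart. SLC1A5 had stood at 174 CPM in Oocyte, 350 in Zygote, and 131 and 190 in 2C. SLC3A1 (-2.79), SLC6A20 (-2.30) and the lysosomal arginine sensor SLC38A9 (-1.70) were lower too.

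The sums of both stages did not overlap for any of the 18, which adds no support to the calls. With 2 sums a side the test itself favours such genes, and the share of all genes was not counted. Without 1 library at a time, 7 calls held throughout (SLC6A8, SLC7A4, SLC43A3, SLC38A7, SLC7A8, SLC7A7 and SLC3A1), and without P2 the count was 11. SLC6A5 was lost without P1 (adjusted p = 0.0826), SLC7A11 without P2 (0.078), SLC6A15 without P1 (0.0522) or P2 (0.057), SLC1A5 without P2 (0.219) or P19 (0.0637), and SLC36A4 and SLC6A20 without any of the 4. SLC3A2 (log2 change 1.59, adjusted p = 0.084) and SLC38A2 (1.78, adjusted p = 0.065) did not pass. The maternal marker list (GDF9, BMP15, ZP3, ZP4, MOS, NLRP5, OOSP2) moved with the comparison: its summed level was 51.9 and 1009 CPM in Morula_E4 and 1360 and 1601 CPM in 8C, with 2 of its 7 genes lower, and its part in the result was not tested.

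**Figure D2:**
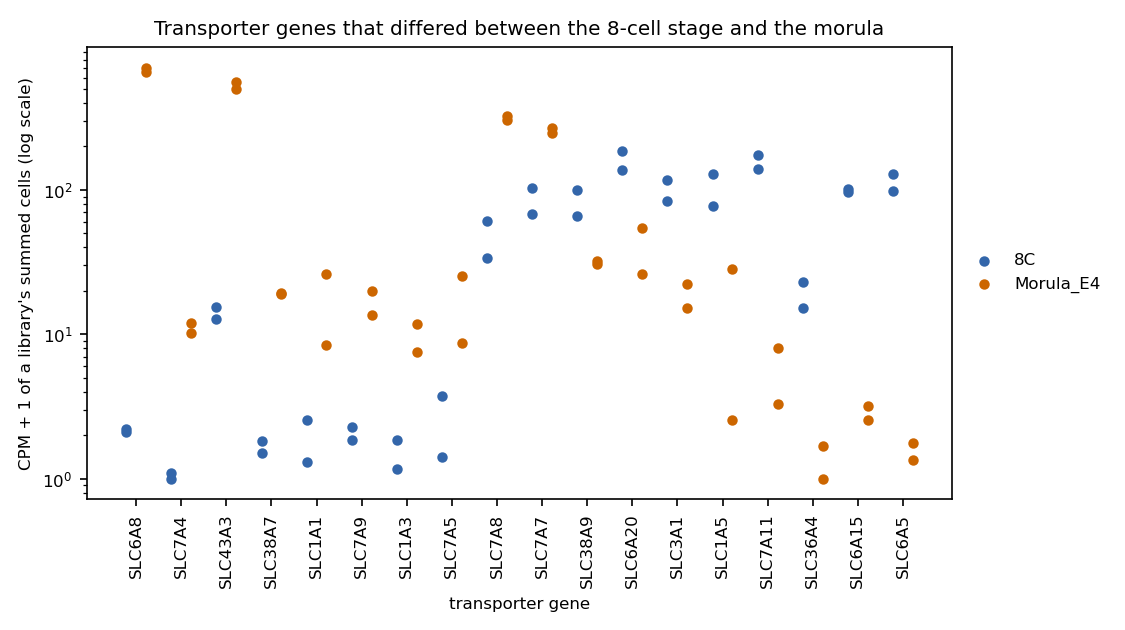
CPM + 1 (log axis) of the transporters called between Morula_E4 and 8C, each point 1 library sum of either group, so that 0 CPM sits at 1. SLC6A8 and SLC43A3 lie at 496 CPM or more in the Morula_E4 sums and at 14.6 CPM or less in the 8C sums, and SLC6A5, SLC6A15 and SLC7A11 lie the other way round.

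Genes of the amino acid enzyme, response and sensor lists were also compared between Morula_E4 and 8C. Of 103 such genes tested, 35 were higher, against 16.3% of all genes, and 22 lower, against 13.5%. Of 15 arginine and polyamine enzymes, 9 were higher and 2 lower; ARG1, the arginase of the urea cycle, had a mean of 318 CPM against 0.08 (log2 change 11.37 ± 1.72) and ASS1, which makes argininosuccinate, 369 against 0.897 (8.44 ± 0.86). Spermine synthase SMS (-2.40) and AMD1 (-1.09) were the lower ones. Of 10 branched-chain and tryptophan enzymes, 4 were higher, led by the transaminase BCAT1 (7.49). The serine, glycine and one-carbon list of 12 was split, with 4 higher, led by AMT (7.13) and GLDC (5.66) of the glycine cleavage system, and 3 lower. Among 20 genes of the amino acid response, PHGDH (4.44) and ATF3 (3.88) were among 4 higher, and PSAT1 (-5.14) and PSPH (-4.79) among 5 lower. Of 30 mTORC1 genes 10 were higher, led by KPTN (4.13) and LAMTOR2 (3.65), and 8 lower, led by RRAGD (-3.75) and the arginine sensor CASTOR1 (-3.60).

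TE_E6 (75 cells) was compared with ICM_E6 (32 cells), both from P14 and P15, for the split of trophectoderm from inner cell mass. None of 49 transporters was called higher in TE_E6 by edgeR, against 1.23% of genes, and 2 were lower, against 1.09% of genes. At an unadjusted p under 0.05, 4 were higher and 3 lower, where 12.1% of all genes passed in either direction. With library as a block, a fit of the 4 sums chosen after the data had been seen, 3 were higher (SLC7A4, SLC36A3 and SLC43A3), against 4.78% of genes, and 2 lower, against 3.77%. Trophectoderm markers followed the labels: 4 of 9 were higher in TE_E6 and their summed mean was 6601 CPM against 1105.

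The 2 lower genes are the chains of 1 carrier. SLC7A9 had 9.24 and 1.93 CPM in TE_E6 of P14 and P15, and 576 and 579 CPM in ICM_E6 (log2 change -6.49 ± 1.18, adjusted p = 0.000551). SLC3A1 had 18.9 and 21.0 CPM against 109 and 169 (-2.69 ± 0.62, adjusted p = 0.0074). The sums did not overlap in either case, which with 2 sums a side adds no support to the calls. Without P14 the SLC3A1 call was lost (adjusted p = 0.135), and without P15 both were (SLC7A9 0.152, SLC3A1 0.472). DESeq2 called 3, adding SLC43A2 as higher, against 4.05% of genes higher and 3.82% lower.

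Hypoblast (292 cells) and epiblast (106 cells) of E7 to E10 were compared within 6 libraries that hold both, P4, P5, P8, P9, P16 and P17. Both lineages were of the same day in each library but P5, where hypoblast of E8 and E10 was set against epiblast of E8. Of 34 transporters tested, 11 were higher in hypoblast, against 12.3% of 13265 genes, and 5 lower, against 10.7%. The median log2 change was 0.45 for the transporters and 0.06 for all genes. All 8 hypoblast markers were higher and all 7 epiblast markers lower, as the labels say.

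The largest differences among the higher ones were those of SLC6A20, SLC7A9, SLC7A2, SLC3A1 and SLC1A1. The proline carrier SLC6A20 had 41.2, 74.7 and 174 CPM (lowest, median, highest) in the hypoblast sums and 1.93, 5.12 and 15 in epiblast (log2 change 3.99 ± 0.39, adjusted p = 3.53e-05). SLC7A9 had 114, 183 and 540 CPM against 1.89, 23.8 and 79.8 (3.46 ± 0.38, adjusted p = 6.14e-05). SLC3A1, its heavy chain, had 141, 183 and 304 CPM against 12.8, 37.2 and 64.4 (2.58 ± 0.22, adjusted p = 1.72e-05). For these 3 genes every hypoblast sum lay above every epiblast sum. The same held for SLC7A2, with 10.8, 22.1 and 43.1 CPM against 0.651, 1.36 and 8.16 (3.42 ± 0.53, adjusted p = 0.000725).

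SLC1A1 was also higher, in 6 of 6 libraries, but over a wide range (1.28, 164 and 244 CPM against 0.214, 16.9 and 64.4; log2 change 2.55 ± 0.46, adjusted p = 0.00191). Its hypoblast level followed the day: 9.72 and 1.28 CPM in the sums of P8 and P9 (E7), 120 in P4 (E8), 130 and 278 in the E8 and E10 cells of P5, 244 in P17 (E9) and 241 in P16 (E10), a description without a test, since each day rests on few libraries. The remaining higher ones were SLC43A2 (2.04), SLC38A7 (1.30), SLC6A8 (1.23), SLC7A8 (0.67), SLC3A2 (0.54) and SLC7A7 (0.50).

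On the epiblast side, SLC7A3 had the clearest separation: 5.93, 15.5 and 48.1 CPM in hypoblast against 140, 234 and 382 in epiblast (log2 change -3.99 ± 0.36, adjusted p = 2.22e-05). The alanine, serine and cysteine carrier SLC1A4 had 1.91, 6.47 and 12.2 CPM against 18.2, 33.4 and 137 (-2.76 ± 0.38, adjusted p = 0.000317). The taurine carrier SLC6A6 had 0, 0.349 and 0.853 CPM against 2.32, 6.25 and 22.7 (-4.52 ± 0.94, adjusted p = 0.00471). Hypoblast and epiblast sums of these 3 did not overlap. The glutamine carriers SLC1A5 (4.45, 23.2 and 37.2 CPM against 5.94, 145 and 208; -2.16 ± 0.30, adjusted p = 0.000315) and SLC38A5 (0.427, 10.4 and 25.8 against 0.33, 61.7 and 181; -2.30 ± 0.70, adjusted p = 0.0336) overlapped between the lineages. SLC1A5 was lower in hypoblast in 6 of 6 libraries and SLC38A5 in 5 of 6.

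The overlap of SLC1A5 and SLC38A5 goes with the E7 sums. Epiblast SLC1A5 was 5.94 and 26.1 CPM in P8 and P9 (E7), 115 and 175 in P4 and P5 (E8), 203 in P17 (E9), and 226 and 208 in P15 and P16 (E10). Epiblast SLC38A5 ran from 0.330 and 12.4 CPM at E7 to 193 and 181 at E10. SLC7A5, with 0.660 and 15.2 CPM at E7 and 89.4 and 65.6 at E10, was likewise lowest at E7. No test was made of these days. Of the 16 calls, 13 held without any 1 of the 6 libraries. SLC7A7 was lost without P5 or P16 (adjusted p = 0.066 and 0.074), SLC38A5 without P5, P9, P16 or P17 (0.0616 to 0.118), and SLC38A7 without P4, P5, P16 or P17 (0.0685 to 0.131).

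Of 99 list genes tested, 14 were higher in hypoblast, against 12.3% of all genes, and 15 lower, against 10.7%. Among them, the arginine sensor CASTOR1 was higher in hypoblast (log2 change 1.85 ± 0.19) and the Rag GTPase RRAGD lower (-5.31 ± 0.50, means of 4.22 and 98.3 CPM). These were 2 of the 3 mTORC1 genes called of 30. Of 15 arginine and polyamine enzymes, 4 were lower, among them ASS1 (-2.91) and AGMAT (-4.28). Glutathione synthetase GSS (2.19) was higher, 1 of 9 cysteine genes tested, and CTH (-1.03) was lower. In the amino acid response list 5 of 20 were higher and 6 lower; PSAT1 (-3.31) fell and MTHFD2 (1.80) rose.

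**Figure D3:**
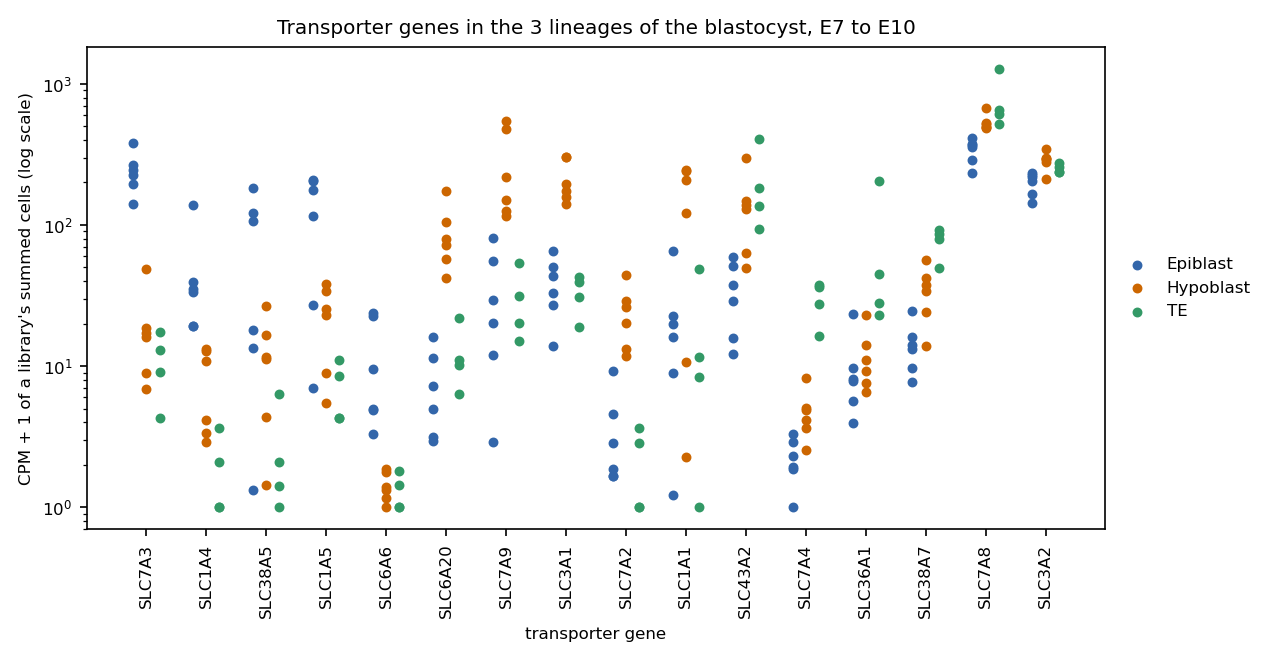
CPM + 1 (log axis) of transporters called between lineages, each point 1 library sum: 6 of epiblast, 6 of hypoblast and 4 of trophectoderm. SLC7A9 and SLC3A1 are high in hypoblast (at least 114 and 141 CPM). SLC7A3 is high in epiblast (at least 140 CPM), and SLC7A4 is high in trophectoderm (at least 15.4 CPM).

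Trophectoderm (38 cells) and epiblast (50 cells) were compared within P4, P5, P8 and P9. P8 and P9 hold cells of E7 and P4 of E8, while in P5 trophectoderm of E8 and E10 was set against epiblast of E8, so no epiblast of E9 or E10 entered. The epiblast sums are those of the same libraries used against hypoblast, so both comparisons share them. Of 25 transporters tested, 7 were higher in trophectoderm, against 7.47% of 9872 genes, and 6 lower, against 7.40%. The median log2 change was 0.22 for the transporters and -0.05 for all genes. Trophectoderm markers were higher for 8 of 9.

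SLC7A4 had 15.4, 26.6, 35.1 and 36.4 CPM in the trophectoderm sums of P4, P5, P8 and P9 and 1.30, 0, 2.31 and 0.856 in epiblast (log2 change 4.79 ± 0.90, adjusted p = 0.00234). SLC36A3, a relative of the proton-coupled carrier SLC36A2, had 174, 95.6, 114 and 32.4 CPM against 7.81, 1.36, 12.9 and 15.4 (3.59 ± 0.70, adjusted p = 0.00306). The nearby SLC36A1, which exports small amino acids from lysosomes, had 27.2, 22.1, 43.7 and 204 CPM against 7.16, 8.61, 2.97 and 6.85 (3.05 ± 0.67, adjusted p = 0.00645). All 4 trophectoderm sums exceeded all 4 epiblast sums for each of these genes. SLC43A2 had 181, 134, 92.2 and 407 CPM against 58.5, 36.3, 11.2 and 14.8 (2.81 ± 0.50, adjusted p = 0.00152). SLC38A7 had 85.6, 48.3, 78.8 and 91.0 CPM against 15, 8.61, 12.2 and 23.7 (2.43 ± 0.45, adjusted p = 0.00222). SLC43A2 and SLC38A7 did not overlap either. SLC38A6 (2.02) and SLC7A8 (0.95) were higher as well.

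Lower in trophectoderm was SLC1A4, with 1.10, 2.66, 0 and 0 CPM against 32.5, 137, 18.2 and 34.2 (log2 change -5.70 ± 0.78, adjusted p = 0.000199). SLC7A3 had 3.31, 12, 16.3 and 8.09 CPM against 245, 382, 140 and 223 (-4.67 ± 0.51, adjusted p = 3.41e-05). The glutamate carrier SLC1A3 had 4.78, 4.43, 5.71 and 4.05 CPM against 62.4, 52.1, 16.8 and 26.3 (-2.86 ± 0.67, adjusted p = 0.00987). These 3 genes separated the lineages in every library. SLC1A5 had 3.31, 7.53, 3.26 and 10.1 CPM against 115, 175, 5.94 and 26.1 (-3.12 ± 0.77, adjusted p = 0.0138), lower in 4 of 4 libraries although its groups overlapped. SLC38A5 had 1.10, 5.31, 0.408 and 0 CPM against 16.9, 107, 0.330 and 12.4 (-3.69 ± 0.94, adjusted p = 0.0163), lower in 3 of 4. SLC38A2 was lower by a log2 change of -2.36.

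Of these 13 calls, 8 held without each of the 4 libraries. SLC1A3 and SLC1A5 were lost without P4 (adjusted p = 0.0627 and 0.063) or P5 (0.0668 and 0.117), SLC7A8 without P4, P5 or P8 (0.101 to 0.202) and SLC38A6 without any library (0.0693 to 0.214). SLC38A5 was too low to be tested without P5. Of the list genes, RRAGD was lower in trophectoderm too (log2 change -6.77 ± 0.69), PSAT1 fell by 4.56 on the log2 scale, and GLDC (3.28), MTHFD1L (2.84) and ALDH1L2 (2.72) were higher.

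Late trophectoderm (E12 to E14, 53 cells, 5 library sums) was compared with early trophectoderm (E6 to E10, 128 cells, 8 sums), the period in which the conceptus elongates. TE_E9, with 2 cells, did not enter. Of 50 transporters tested, 9 were higher late, against 8.81% of 23032 genes, and 5 were lower, against 5.61%. The median log2 change was 0.92 for the transporters and 0.00 for all genes. Only P9 holds both periods, so for the other libraries day and library cannot be told apart.

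The taurine carrier SLC6A6 had 2.17, 4.17, 22, 34.4 and 1.28 CPM in the late sums of P10, P12, P18, P19 and P9, and 0, 0 and 0.816 (lowest, median, highest) in the early ones (log2 change 5.98 ± 1.11, adjusted p = 0.000152). SLC3A1 had 93.8, 252, 89.3, 180 and 103 CPM against 3.67, 25.4 and 43.5 (2.29 ± 0.36, adjusted p = 8.96e-06). Late and early sums did not overlap for these 2 genes. The glutamine carrier SLC38A2 had 26.9, 159, 175, 231 and 87.8 CPM against 5.50, 23.2 and 59.4 (2.02 ± 0.51, adjusted p = 0.00445), with only the P10 sum inside the early range.

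SLC7A4 and SLC7A9 depended on library P12. SLC7A4 had 78.9, 616, 95.3, 87.9 and 32.4 CPM against 15.4, 31.6 and 63.5 (log2 change 2.18 ± 0.61, adjusted p = 0.012, and 0.31 without P12). SLC7A9 had 10.8, 400, 1.79, 1.53 and 71.6 CPM against 1.93, 11.7 and 52.6 (2.48 ± 0.71, adjusted p = 0.0145, and 0.709 without P12). For SLC7A9 only the sums of P12 and P9 lay above the early range. Among the others, SLC6A15 (4.14) was lost without P18 (log2 change 1.28, adjusted p = 0.567), and its log2 change was 7.66 without P15. SLC1A6 (3.58) and SLC1A5 (2.0) were lost without P14 (adjusted p = 0.051 and 0.0512) or P18 (0.178 and 0.111). SLC7A5 (1.71) was lost without P10 (0.136) or P14 (0.0541).

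SLC6A8 had 19.5, 3.21, 10.7, 1.53 and 59.7 CPM late against 22.9, 202 and 989 early (log2 change -4.11 ± 0.78, adjusted p = 0.000175). SLC7A8 had 240, 107, 111, 78.7 and 298 CPM against 266, 606 and 1275 (-1.98 ± 0.34, adjusted p = 3.88e-05). In both, only the late sum of P9 reached the early range. SLC43A3 had 8.36, 12.2, 11.9, 4.59 and 0.853 CPM against 2.37, 9.39 and 142 (-2.69 ± 0.69, adjusted p = 0.00567), with a late median close to the early one. The heavy chain SLC3A2 had 132, 59.7, 34.5, 44.3 and 149 CPM against 126, 213 and 276 (-1.37 ± 0.39, adjusted p = 0.0139), a call lost without P12 (0.0649) or P18 (0.0562). SLC7A7 (-0.63) was lost without any of 7 libraries (0.0559 to 0.159). Without P18 the count of calls was 9 rather than 14, and 6 genes were called without each of the libraries in turn: SLC3A1, SLC6A6, SLC6A8, SLC7A8, SLC38A2 and SLC43A3.

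Within P9, the late and early sums were 103 and 38.4 CPM for SLC3A1, 87.8 and 6.07 for SLC38A2, 1.28 and 0 for SLC6A6, 59.7 and 989 for SLC6A8, and 298 and 1275 for SLC7A8. These 5 had the direction of the comparison, as did 9 of the 14 called transporters in all. Both P9 sums were part of the fit that made the calls, so their direction is a description and not a separate check. The opposite direction was seen in 3, SLC7A4 (32.4 and 36.4 CPM), SLC1A5 (1.71 and 10.1 CPM) and SLC7A7 (265 and 212 CPM), and SLC1A6 and SLC6A15 were at 0 in both sums.

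Markers of other cells moved with this comparison. Of 8 mesoderm markers 3 were higher late, and their summed level per library ran from 419 to 908 CPM late and 5.15 to 90.2 early. Most of it was HAND1, also a trophoblast gene, at a mean of 596 CPM late and 11.7 early. The other called mesoderm markers were MESP1 (means of 12.2 CPM late and 2.77 early) and SNAI2 (3.799 and 0.2398 CPM). TBXT (0.153 and 0 CPM) and MIXL1 (0.0619 and 0 CPM) were at or near 0. Both were also too low to be tested between mesoderm and ectoderm, so their levels cannot show whether mesoderm cells were present. Of 6 blood and fibroblast markers tested 4 were higher, with sums of 1.71 to 388 CPM late and 0 to 175 early. Definitive endoderm markers were higher for 2 of 7 (CER1, 16.2 and 0.198 CPM, and EOMES, 11.4 and 0.59 CPM), with sums of 22.2 to 114 CPM late and 5.57 to 39.4 early. Ectoderm markers were higher for 2 of 6 (ZIC2 and PAX6), with sums of 232 to 341 CPM late and 70.4 to 447 early. Of the epiblast list DNMT3B was higher and PRDM14 lower, and of the hypoblast list GATA6 was lower. Trophectoderm markers were called in neither direction by edgeR (0 of 9, with 1 lower at an unadjusted p under 0.05), yet their summed level was 2809 to 5547 CPM late and 5865 to 7927 early. The part of these markers in the transporter result was not tested.

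**Figure D4:**
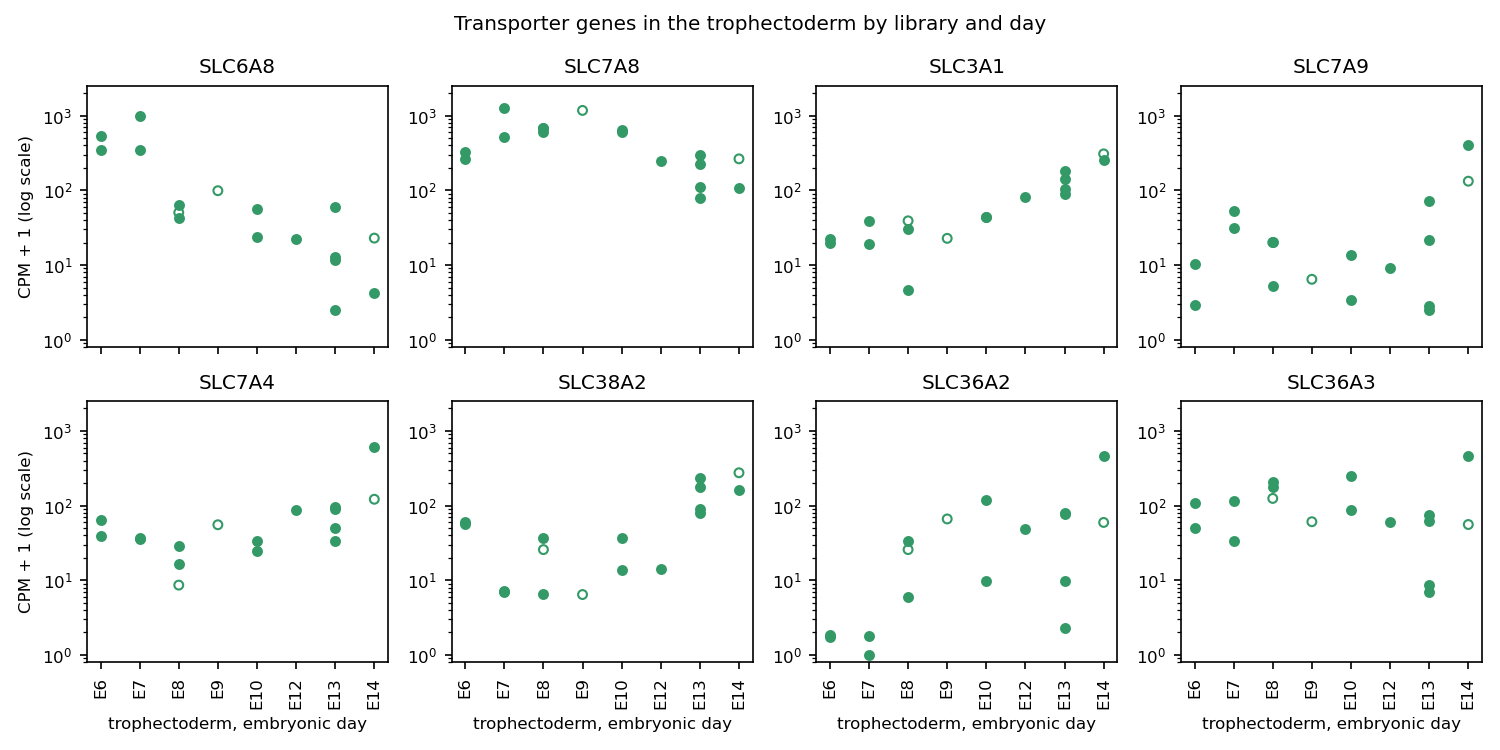
CPM + 1 (log axis) of transporters in the trophectoderm sums by embryonic day, each point 1 group in 1 library and open circles for sums of under 5 cells. SLC3A1 lies at 80.8 CPM or more in every sum from E12 on, while SLC38A2 is still low in TE_E12 (13.3 CPM) and lies at 77.9 CPM or more in TE_E13 and TE_E14.

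SLC36A2, a proton-coupled carrier of glycine and proline, and its relative SLC36A3 lie end to end at chr16:71661946-71689464 and chr16:71689211-71732634 of Sscrofa11.1. Their gene models share 254 bases. Their counts were 20 and 2575 in TE_E6, 111 and 881 in TE_E8, 239 and 227 in TE_E13, and 1464 and 1456 in TE_E14. In TE_E14 all 10 cells with at least 20 counts had counts for the 2 genes within 10% of each other, and in TE_E6 none of 46 did. The sources used here do not say whether the counting used strand, and reads from a stretch that both models cover cannot be assigned. The late SLC36A2 and SLC36A3 levels are therefore uncertain as values of separate genes.

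Of 103 list genes tested, 15 were higher late, against 8.81% of all genes, and 20 lower, against 5.61%. ARG1 was lower late (log2 change -7.00 ± 1.31, means of 0.808 and 89.9 CPM). OAT, which makes glutamate semialdehyde from ornithine, was higher (1.70 ± 0.31). Of the 15 arginine and polyamine enzymes, 2 were higher and 6 lower. Of 13 glutamine, glutamate and aspartate enzymes 6 were higher, led by GPT2 (2.66) and ALDH18A1 (2.52), and PPAT (-2.10) and GLUD1 (-1.72) were lower. SHMT1 (2.54) was higher late, and MTHFD1L (-3.30) and GLDC (-2.52) were lower, in a serine, glycine and one-carbon list with 3 of 12 higher and 5 lower.

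For the germ layers, endoderm (43 cells) and ectoderm (138 cells) were compared within P10 (E12), P18 and P19 (E13) and P11 (E14). No cell of E11 entered. Of 33 transporters tested, 7 were higher in endoderm, against 1.17% of 12613 genes, and 0 were lower by edgeR, against 0.143%. At an unadjusted p under 0.05, 12 were higher and 2 lower, where 11.6% of all genes passed in either direction. DESeq2 called 11 higher, against 3.46% of genes, and 2 lower, against 1.76%. The median log2 change was 0.44 for the transporters and -0.17 for all genes.

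SLC7A9 had 208, 31.6, 333 and 101 CPM in the endoderm sums of P10, P11, P18 and P19 and 7.01, 8.20, 2.51 and 1.16 in ectoderm (log2 change 5.33 ± 0.77, adjusted p = 0.00155). SLC3A1 had 226, 115, 140 and 111 CPM against 30.7, 43.7, 18.4 and 15.3 (2.64 ± 0.39, adjusted p = 0.00186). SLC6A20 had 139, 9.55, 72.0 and 86.7 CPM against 4.46, 2.01, 1.73 and 4.94 (4.37 ± 0.64, adjusted p = 0.00171). All endoderm sums of these 3 genes lay above all ectoderm sums, with the P11 sums of SLC7A9 and SLC6A20 the lowest.

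SLC1A1 had 265, 14.2, 45.0 and 48.4 CPM against 17.2, 1.01, 1.91 and 5.68 (3.95 ± 0.47, adjusted p = 0.00029), higher in 4 of 4 libraries, although P11 endoderm was below P10 ectoderm. SLC6A19, which takes up neutral amino acids in the intestine, had 42.9, 44.6, 41.4 and 6.82 CPM against 3.06, 5.61, 2.27 and 0.549 (3.74 ± 0.73, adjusted p = 0.0151), with P19 well below the other endoderm sums but above ectoderm. SLC6A8 (2.09) and SLC7A8 (1.73) were higher in 4 of 4 libraries too. SLC6A8 and SLC6A19 were lost without P10 (adjusted p = 0.269 and 0.112), P18 (0.185 and 0.0602) or P19 (0.0621 for each), and the other 5 calls held.

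The label was checked against markers. Of 7 definitive endoderm markers only SOX17 was higher in endoderm (means of 103 and 5.58 CPM), the summed level of the list ran from 116 to 661 CPM in endoderm and 116 to 512 in ectoderm, and the other 6 were called in neither direction. Of those, FOXA2 (54.7 and 15 CPM) and HHEX (88.1 and 30 CPM) had the higher mean in endoderm, and CER1 (31.1 and 102 CPM) and EOMES (32.0 and 77.6 CPM) in ectoderm. The hypoblast list ran from 793 to 2752 CPM in endoderm and 493.4 to 522 in ectoderm, with SOX17 and APOE (1360 and 300 CPM) higher, 2 of 8. Apart from SOX17, these sums thus carry no called definitive endoderm marker, and they are called here by the authors' label. Trophectoderm markers were called for 0 of 9, yet their sums ran from 1995 to 5041 CPM in endoderm and 1662 to 1921 in ectoderm. The part of hypoblast-type or trophectoderm-type cells in the transporter result was not tested. Of the amino acid lists, SAT1 (1.19) and GLDC (2.95) were higher and RRAGD (-2.80) was lower.

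**Figure D5:**
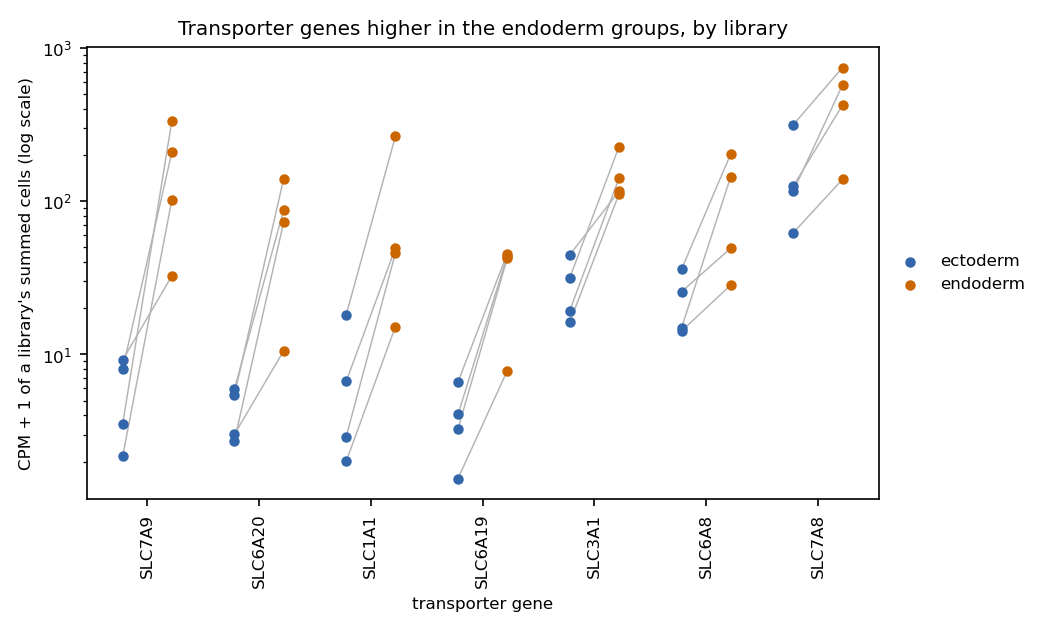
CPM + 1 (log axis) of the transporters called between endoderm and ectoderm of E12 to E14, each point 1 library sum and each line 1 library (P10, P11, P18 and P19). All lines rise from ectoderm to endoderm, for SLC7A9 from at most 8.20 CPM to at least 31.6 CPM.

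Mesoderm (95 cells) was compared with the same kind of ectoderm sums (218 cells) within P6, P10, P12, P13, P18 and P19, so the 2 germ layer comparisons share ectoderm cells. Of 35 transporters tested none was called higher by edgeR, against 2.11% of 12555 genes, and 1 was lower, against 1.51%. The median log2 change was 0.15 for the transporters and -0.03 for all genes. SLC7A3 had 114, 48.5, 4.93, 4.25, 9.20 and 6.44 CPM in mesoderm of P6, P10, P12, P13, P18 and P19, and 133, 130, 56.6, 28.2, 52.0 and 61.5 CPM in ectoderm (log2 change -2.09 ± 0.38, adjusted p = 0.0176). It was lower in 6 of 6 libraries, and highest in P6 in both layers. The call was lost without P12 (adjusted p = 0.0657), P18 (0.0757) or P19 (0.0601). DESeq2 called 2 higher, against 4.89% of genes, and 3 lower, against 4.72%. At an unadjusted p under 0.05 edgeR had 4 higher and 5 lower, where 18.2% of all genes passed in either direction. Without the library block, in a fit that also took in 2 more ectoderm sums, SLC7A3 was not called and SLC6A20 and SLC7A9 were called higher. Mesoderm markers were higher for 4 of 6 tested. Blood and fibroblast markers were higher for 4 of 5, with sums of 3.55 to 4306 CPM in mesoderm and 7.01 to 384 in ectoderm. Hypoblast markers were higher for 2 of 8 (sums of 839 to 1854 CPM against 420 to 725). Trophectoderm markers were higher for 2 of 9 (1983 to 3777 CPM against 1452 to 2257). Epiblast markers were lower for 4 of 6 tested and ectoderm markers for 3 of 6. The part of such cells was not tested.

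Ectoderm of E11 to E14 (336 cells, 8 sums) was compared with epiblast of E7 to E10 (154 cells, 7 sums) to follow the embryonic lineage into gastrulation. No library holds both, so day and library cannot be told apart. Of 49 transporters tested, 2 were higher in ectoderm, against 5.36% of genes, and 6 were lower, against 5.13%, with a median log2 change of -0.15 for the transporters and 0.09 for all genes. SLC6A8 had 13.2, 22.2 and 35.0 CPM in ectoderm against 35.3, 87.5 and 192 in epiblast (log2 change -2.21 ± 0.49, adjusted p = 0.00195), the only called transporter whose sums did not overlap. SLC7A9 had 0.852, 3.26 and 13 CPM against 1.89, 19 and 79.8 (-2.70 ± 0.67, adjusted p = 0.00636). SLC7A8 had 33.9, 120 and 316 CPM against 212, 354 and 415 (-1.37 ± 0.34, adjusted p = 0.00562). The sums of SLC7A9 and SLC7A8 overlapped between the stages.

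SLC1A3 had 2.88, 11 and 36 CPM against 16.8, 52.5 and 93.6 (-1.94 ± 0.51, adjusted p = 0.0104). SLC7A3 had 28.2, 59.0 and 180 CPM against 140, 223 and 382 (-1.45 ± 0.39, adjusted p = 0.0119). For SLC1A3 and SLC7A3 the ectoderm median lay below the lowest epiblast sum. SLC3A2 (-1.22) was lost without P5, P8, P9, P11, P12 or P13 (adjusted p = 0.0524 to 0.069). SLC6A19 (5.11) and SLC36A4 (4.06) were higher from a median of 0 CPM in epiblast to 2.20 and 2.26 CPM in ectoderm. Mesoderm markers were higher in these ectoderm sums for 6 of 8 (means of 304 and 49.3 CPM summed), definitive endoderm markers for 4 of 7, hypoblast markers for 4 of 8, fibroblast-type markers for 4 of 6 and trophectoderm markers for 2 of 9, and their part was not tested. ASS1, which supplies arginine synthesis, was lower in ectoderm (-3.67 ± 0.39), 1 of 4 lower arginine and polyamine enzymes of 15. Of 103 list genes tested, 3 were higher in ectoderm, against 5.36% of all genes, and 9 lower, against 5.13%.

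The pgEpiSC cells (189 cells, 2 sums) were compared with Epiblast_E10 (97 cells, P15 and P16), the stage of origin. The 2 sums, pgEpiSC_low and pgEpiSC_high, served as replicates although what sets them apart is not given. SLC7A11 and SLC6A8 differed between them by more than 1 log2 unit. Of 49 transporters tested none was called higher by edgeR, against 0.0518% of genes, and 1 was lower, against 0.306%. At an unadjusted p under 0.05, 1 was higher and 1 lower, where 8.84% of all genes passed in either direction. DESeq2 called none higher, against 0.712% of genes, and 1 lower, against 1.58%. The pgEpiSC and epiblast cells came from different libraries, so cell source and library cannot be told apart. The lower gene, SLC1A6, a glutamate carrier best known from Purkinje cells, had no count among 33487183 in the pgEpiSC sums and 16.2 and 7.49 CPM in P15 and P16 (adjusted p = 0.0351). A floor of 3 counts over the pgEpiSC group is 0.0896 CPM. Against it, the 12.4 CPM of the pooled Epiblast_E10 cells made SLC1A6 at least 138-fold lower in the pgEpiSC cells. From P16 alone the bound was 83-fold and from P15 alone 180-fold. That call was lost without any 1 of the 4 sums (adjusted p = 0.0543 to 0.719). SLC7A5, SLC1A5, SLC7A1 and SLC7A11 did not pass. SLC7A5 had a log2 change of 0.53, SLC1A5 -0.39, SLC7A1 0.72 and SLC7A11 2.07. Of 103 genes of the enzyme, response and sensor lists none was called by edgeR, with 3 higher and 6 lower at an unadjusted p under 0.05.

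pgEpiSC_high and pgEpiSC_low, with 1 library each, allow no test. Among 20 transporters with at least 10 CPM in either, none was higher in pgEpiSC_high by 1 log2 unit, where 2.03% of 9114 genes were, and 2 were lower, where 2.06% were. SLC7A11 had 81 counts in pgEpiSC_high (4.05 CPM, exact 95% Poisson interval 3.21 to 5.03) and 414 in pgEpiSC_low (30.7 CPM, 27.9 to 33.9), a log2 ratio of -2.65 with 1 CPM added. SLC6A8 had 16.3 CPM (14.6 to 18.2) and 38.3 CPM (35.1 to 41.8), a log2 ratio of -1.19. The intervals cover counting error only. The other 18 transporters lay within 1 log2 unit, among them SLC7A3 (126 and 131 CPM), SLC1A5 (116 and 165 CPM), SLC38A2 (113 and 166 CPM) and SLC7A5 (72.1 and 118 CPM).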

How the data were processed

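The authors deposited a table of raw counts per gene and cell, and 2 tables with the mean and the SD over the cells of each of 39 groups; the deposited values of these are log2(CPM/10 + 1). Per the submitters' processing notes, the build was Sscrofa11.1 and the tools were featureCounts 1.6.4, STAR 2.7.1a and UMI-tools; the sources used here do not say whether counting used strand or removed duplicate molecules. The count table covers 29214 pig genes and 92 spike-ins, and the spike-ins stayed out of all totals.

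Cell names give the library but not the group. Cells were therefore placed in the authors' groups by least squares of each deposited mean on the cells' own values over the 24284 of 25749 rows matched by name. Means rebuilt this way came within 0.001 of the deposited ones for at least 93.0% of rows in every group, and SDs for at least 99.82%. This replaced a grouping by label. The endoderm bin joins Endoderm_E11, Endoderm_E12, Defi_Endoderm_E13 and Defi_Endoderm_E14; in E11 the cells of P8 have no ectoderm partner and did not enter.

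Counts were added per library over the cells of a bin of days, with at least 5 cells per sum (2 for Zygote, 2C and 4C, and 1 for Oocyte). Sums were tested with edgeR 4.0.16 (R 4.3.3; filterByExpr, TMM, quasi-likelihood F-test, Benjamini-Hochberg over all genes tested). Where at least 3 libraries held both bins, the test used those libraries with library as a block. Otherwise, also for TE_E6 against ICM_E6 with 2 such libraries, the sums of all groups entered 1 fit without a block, which treats sums of the same library as independent. Standard errors are the absolute log2 change divided by the root of F. CPM divide a count by the sum's own total, times 1000000, and log2 changes are TMM-scaled. DESeq2 1.42.0, its size factors in edgeR, no filter on low counts, no library block and leaving out each library were the alternatives, and TE_E6 against ICM_E6 with a library block was added after the data had been seen. Where leaving out a library left a bin with 1 sum, that sum was assumed to vary like the others. The tests were tried on simulated counts first. Tables were handled with Python 3.11.15, numpy 2.4.6, pandas 2.3.3, scipy 1.17.1 and matplotlib 3.10.9.

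The transporters and the lists of enzymes, sensors and markers (156 of 162 genes identified) were chosen with earlier results of these data known. In each comparison every called transporter is named. A transporter below the detection level is counted but not reported here by name. Library values are given for up to 5 per direction, those with the largest log2 change that reach 10 CPM in the group where they are higher, and SLC7A1, SLC7A5, SLC3A2, SLC7A11, SLC1A5, SLC38A2, SLC6A9, SLC1A1, SLC6A14 and SLC7A7 could be given whether or not they passed. From each list up to 2 genes per direction are named. Gene positions come from the RefSeq annotation of Sscrofa11.1, the build of the processing notes. No sequences were used here.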

Additional observations from a re-analysis of the deposited data

Results flagged for a closer look

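For each called transporter, groups of 4 to 10 library sums were searched for a sum set apart from the rest on the log2(CPM + 1) scale, by Dixon's ratio at the 95% level. Of 118 groups searched, 7 held such a sum, and chance gives about 1 in 20 groups, so about as many would be found with no departure at all. SLC3A1 in early trophectoderm was low in P3, at 3.67 CPM with the next sum at 18 CPM. SLC6A15 in early trophectoderm was at 0.858 CPM in P15 and 0 in all others. SLC1A4 in epiblast was high in P5, at 137 CPM with the next at 38.4. SLC7A8 in hypoblast was high in P17, at 673 CPM with the next at 527. SLC6A19 in endoderm was low in P19, at 6.82 CPM with the next at 41.4. SLC36A4 was at 0.604 CPM in the epiblast sum of P16 with the next at 0.0615, and at 0 in the ectoderm sum of P10 with the next at 1.79 CPM. No cause was tested for any of these.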

How the results depend on the processing

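Of 828 recomputed values of called transporters, 734 stayed on the same side of the threshold, 94 no longer passed and 0 changed direction. The count of called transporters stayed within 1.5 times the reported one for every comparison and alternative but the following. For TE_E6 against ICM_E6 (2 called) it was 5 with a library block over 4 sums, and 0 to 1 without 1 library. For trophectoderm against epiblast (13) it was 25 in the fit of all sums without the library block, which also took in other libraries (6 and 7 sums) and tested 23037 genes rather than 9872; all 13 stayed called. For mesoderm against ectoderm (1) it was 5 with DESeq2, 9 with no filter on low counts, 2 in the fit of all sums without the library block (6 and 8 sums), neither of them SLC7A3, and 0 to 2 without 1 library. For endoderm against ectoderm (7) it was 13 with DESeq2. Leaving out 1 library gave 11 to 14 for Morula_E4 against 8C (18), 9 to 15 for late against early trophectoderm (14) and 0 for the pgEpiSC lines against Epiblast_E10 (1). The causes were not tested. Of the highest groups, 31 of 43 were the same in pooled CPM. Comparisons with 2 sums per side have the least support, and low sums limit SLC6A6, SLC6A15, SLC1A6, SLC36A4 and SLC38A5, each of which had sums at or near 0 CPM. No paired analysis by replicate number was possible because the library numbers are names and the labels pair no samples across groups; the library block stands in for it.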
